A study of Peromyscus maniculatus and Peromyscus polionotus and Peromyscus maniculatus x Peromyscus polionotus with 18 samples.

Results

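The opioid system of the brain was described here through 7 genes: the 3 precursors of opioid peptides, *Penk*, *Pdyn* and *Pnoc*, and the 4 receptors, *Oprm1*, *Oprd1*, *Oprk1* and *Oprl1*. The genes were found by their symbols, without regard to case, among the 20731 rows of a transcript table that name a gene and among the 11928 rows of a table of allele counts, and all 7 were in both. The study asked which genes of the brain differ between deer mice that dig differently and whether such differences lie on the alleles themselves. *Peromyscus maniculatus*, *Peromyscus polionotus* and their F1 hybrids, which carry 1 allele of each species, were profiled by RNA sequencing of whole brains, 3 libraries for each species or hybrid after a burrowing trial and 3 after a control trial, 18 in all. All animals were males of about 50 to 80 days that had been through 2 earlier trials in sand-filled enclosures before they were assigned at random to a trial. The labels name no altered allele and no agent in any group. What the control trial consisted of was not given in the sources used here, nor was the species of the mothers of the hybrids. The *Gprasp1* counts given further on bear on the latter.

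Opioid peptides are cut from larger precursor proteins. *Penk* encodes proenkephalin, the source of the enkephalins, which act mainly at the delta and mu receptors; *Pdyn* encodes prodynorphin, the source of the dynorphins, which prefer the kappa receptor; and *Pnoc* encodes the precursor of nociceptin, the ligand of the nociceptin receptor. The receptors mu (*Oprm1*), delta (*Oprd1*), kappa (*Oprk1*) and nociceptin (*Oprl1*) couple to inhibitory G proteins and lower the activity of the neurons that carry them. In the rodent striatum enkephalin is made by the projection neurons of the indirect pathway, which carry the dopamine receptor *Drd2*, and dynorphin by those of the direct pathway, which carry *Drd1*.

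Parental levels are TPM, transcript abundances corrected for length and brought to 1 total per library, on which genes can be compared. A TPM table keeps no sequencing depth, so only the spread between libraries shows how precise these levels are. Hybrid counts that could be given to an allele totalled 11415175 to 53906964 per animal, and control replicate 3 was the deepest. Neuronal marker genes were high in every parental library, from 2252 TPM summed over 6 genes upwards. The summed level of 15 *Hox* genes, which mark hindbrain and spinal cord, was 7.82 to 38.9 TPM in the polionotus control libraries against 43.9 to 54.7 TPM in the maniculatus control libraries. After burrowing it was 47.9 to 57.4 TPM in *P. polionotus* and 35.3 to 51.7 TPM in *P. maniculatus*. The lowest values thus lay in the polionotus controls. In such bulk tissue fewer cells of a type and less RNA per cell cannot be told apart.

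The levels of the 7 genes spanned a wide range and kept the same order in both species. *Penk* led with a mean of 339 ± 46.8 TPM (SD, n = 6) in *P. maniculatus* and reached 450.1 ± 32.9 TPM in *P. polionotus*. *Oprl1* came next and stood far above the other receptors, with 231 ± 4.95 and 161 ± 13.4 TPM. *Pdyn*, *Oprk1*, *Pnoc*, *Oprm1* and *Oprd1* followed in that order, and *Oprd1* was lowest with 1.42 ± 0.254 TPM in *P. maniculatus*. The ranges of neighbours in this order did not overlap between libraries, except *Pnoc* and *Oprm1* in *P. maniculatus* and *Oprm1* and *Oprd1* in *P. polionotus*.

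**Figure D1:**
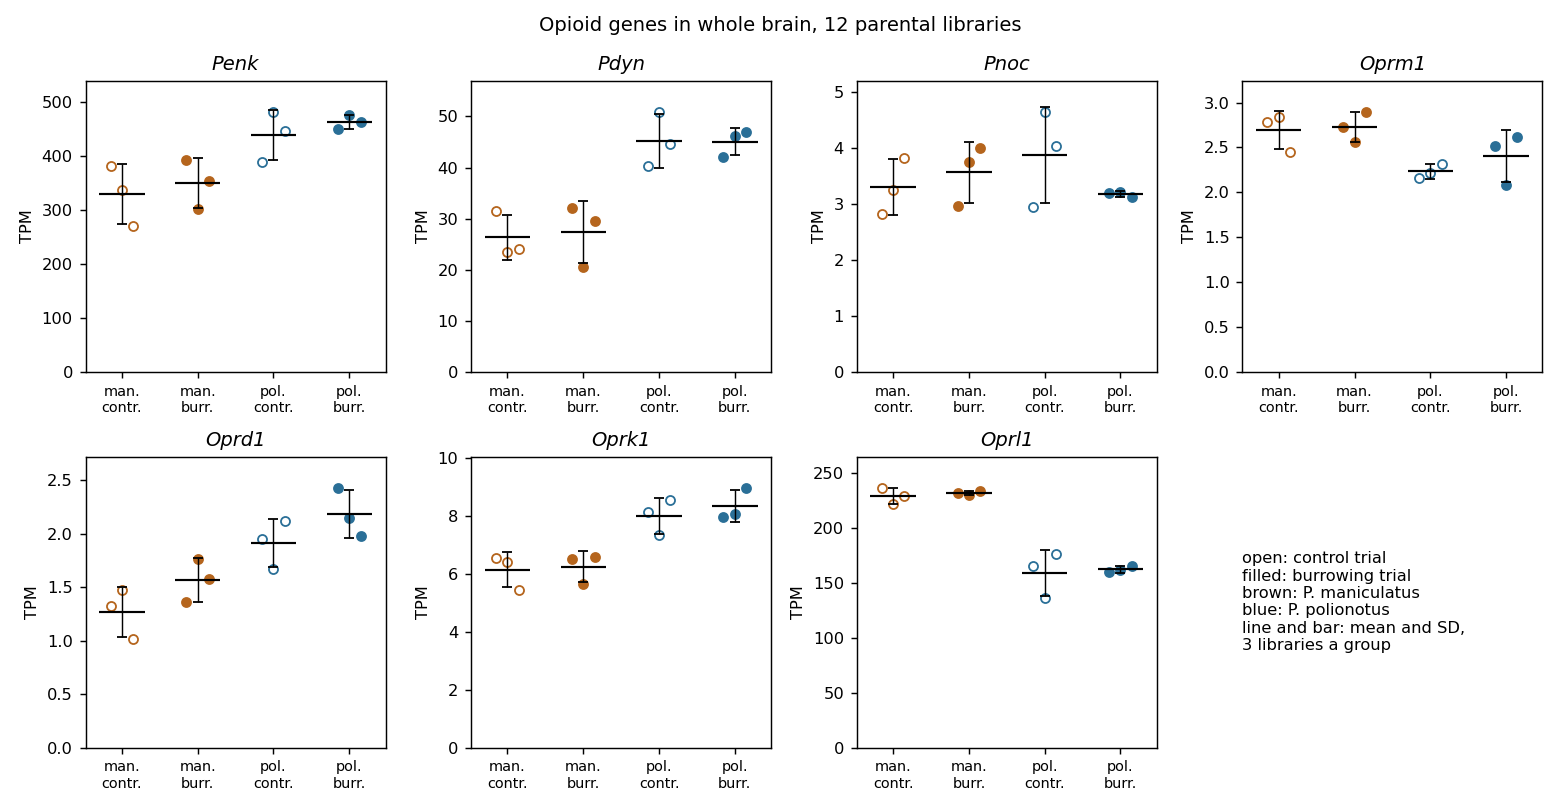
Level (TPM, linear axis from 0) of each opioid gene in the 12 parental libraries, by species and trial; each point is 1 library, lines are group means and bars SD (n = 3). All polionotus points lie above all maniculatus points for Pdyn and Oprk1 and below them for Oprl1, while the trials overlap within each species for all 7 genes.

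6 of the 7 genes differed between the species over both trials, 4 with higher and 2 with lower levels in *P. polionotus*. Across all 14366 genes tested 52.4% differed, 32.6% higher and 19.8% lower, so a difference as such was common. The test was limma on log2(TPM + 1) with p-values adjusted by the Benjamini-Hochberg method over all genes, and "called" means an adjusted p under 0.05. The median difference of the 7 genes was 0.34 on that log2 scale, beside 0.06 over all genes tested. The libraries of the species did not overlap for *Pdyn*, *Oprk1* and *Oprl1*, which held for 32.8% of all genes tested.

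*Pdyn*, the dynorphin precursor, showed the largest of the 7 differences. In *P. maniculatus* it stood at 31.4, 23.5 and 24.1 TPM in control libraries 1 to 3 and at 32.1, 20.5 and 29.6 TPM in burrowing libraries 1 to 3. In *P. polionotus* the corresponding levels were 40.4, 50.8 and 44.5 TPM and 42.1, 46.2 and 46.9 TPM. Each polionotus library lay above each maniculatus library. The mean level was 1.68 times as high in *P. polionotus*, and the difference on the log2(TPM + 1) scale was 0.74 ± 0.11 (SE, limma adjusted p = 0.000269).

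*Penk*, the enkephalin precursor, was at 380, 337 and 270.2 TPM in the maniculatus control libraries and at 393, 302 and 354 TPM after burrowing. The polionotus libraries held 389, 481 and 445 TPM in controls and 449, 475 and 462 TPM after burrowing. All polionotus libraries but control replicate 1 lay above the highest maniculatus library. The mean level was 1.33 times as high in *P. polionotus*, a difference of 0.42 ± 0.09 (SE, log2 scale, limma adjusted p = 0.00314).

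*Pnoc*, the nociceptin precursor, did not pass the test. It ranged from 2.81 to 3.99 TPM with a median of 3.49 in *P. maniculatus* and from 2.94 to 4.63 TPM with a median of 3.21 in *P. polionotus*. The ranges overlapped over most of their width. The difference was 0.03 on the log2 scale with a 95% interval from -0.19 to 0.24 (limma adjusted p = 0.842).

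*Oprl1*, the nociceptin receptor, had the smallest p of the 7 and was lower in *P. polionotus*. The maniculatus libraries held 237, 222 and 229.5 TPM in controls and 232, 230.0 and 234 TPM after burrowing. The polionotus libraries held 166, 136 and 176 TPM in controls and 159.8, 162 and 166 TPM after burrowing, all below the lowest maniculatus library. The level in *P. maniculatus* was 1.43 times that in *P. polionotus*, and the difference was -0.52 ± 0.06 (SE, log2 scale, limma adjusted p = 2.67e-05). In the gene table of a *P. maniculatus* assembly *Oprl1* overlaps *Rgs19*, *Lkaaear1* and a pseudogene, and use of strand in the authors' counting was not given in the sources used here, so its values are uncertain where reads of these genes could be shared. *Rgs19*, a regulator of inhibitory G proteins, differed in the other direction, by 0.18 ± 0.05 (SE, log2 scale, limma adjusted p = 0.0188).

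*Oprk1*, the kappa receptor, was higher in *P. polionotus* in every library. Its levels ran from 5.45 through a median of 6.47 to 6.59 TPM in *P. maniculatus* and from 7.33 through 8.11 to 8.97 TPM in *P. polionotus*. The difference was 0.35 ± 0.06 (SE, log2 scale, limma adjusted p = 0.000728). The kappa receptor and the precursor of its ligand were both higher in *P. polionotus*, by 1.32 and 1.68 times.

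*Oprd1*, the delta receptor, was the least abundant member and was higher in *P. polionotus*. It stood at 1.01 to 1.77 TPM with a median of 1.42 in *P. maniculatus* and at 1.67 to 2.43 TPM with a median of 2.05 in *P. polionotus*. 5 of 6 polionotus libraries lay above all maniculatus libraries. The mean was 1.44 times as high and the difference 0.34 ± 0.07 (SE, limma adjusted p = 0.00261) on log2(TPM + 1), a scale that understates changes at such levels.

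*Oprm1*, the mu receptor, was slightly lower in *P. polionotus*, with levels of 2.08 to 2.62 TPM and a median of 2.27 against 2.45 to 2.89 TPM and a median of 2.76 in *P. maniculatus*. 4 of 6 polionotus libraries lay below all maniculatus libraries. The difference was -0.16 ± 0.06 (SE, log2 scale, limma adjusted p = 0.0331). This call rested on the full set of libraries. It was lost without maniculatus control replicate 1 (adjusted p = 0.0703) or 2 (0.0764), without maniculatus burrowing replicate 1 (0.0599) or 3 (0.0759), without polionotus control replicate 1 (0.0652) and without polionotus burrowing replicate 2 (0.0817), all in limma.

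Within each trial the same 5 genes were called, *Penk*, *Pdyn*, *Oprd1* and *Oprk1* higher and *Oprl1* lower in *P. polionotus*, beside 39.6% of all genes called in control animals (26.8% higher and 12.9% lower) and 34.1% after burrowing (20% higher and 14.1% lower). *Oprm1* had differences of -0.19 in controls (limma adjusted p = 0.0832) and -0.13 after burrowing (limma adjusted p = 0.227). The species contrast itself was not shown to depend on the trial for any of the 7 genes, as the interaction reported further on passed for none. Without the 2 polionotus control libraries low in hindbrain genes, which leaves 1 library in that group, *Oprl1* was the 1 member still called in controls. *Penk* then stood at 0.25 and *Pdyn* at 0.61, against 0.42 and 0.77 with all libraries, and *Oprd1* and *Oprk1* at 0.39 and 0.36, against 0.36 and 0.34. That lone library is assumed to vary like the other groups. Without the 3 libraries that stood apart on the second principal component 3 members were called in controls. The number of all genes called in that fit is not given here. With median scaling 3 members were called after burrowing, beside 5281 of 14366 genes. In controls the calls of *Penk* and *Oprd1* were lost without maniculatus control replicate 3 (0.0868 and 0.0621, in that order) or polionotus control replicate 3 (0.0651 and 0.0626), and that of *Penk* also without polionotus control replicate 2 (0.0845). After burrowing the calls of *Penk* and *Oprd1* were lost without maniculatus burrowing replicate 3 (0.0665 and 0.0784), polionotus burrowing replicate 1 (0.0598 and 0.122) or 2 (0.0897 and 0.0817), *Penk* also without maniculatus burrowing replicate 2 (0.119) or polionotus burrowing replicate 3 (0.0713) and *Oprd1* also without maniculatus burrowing replicate 1 (0.126); these are adjusted p-values from limma.

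Some marker genes of striatal neurons were also higher in *P. polionotus*. Of 13 genes of striatal projection neurons 6 were called higher and 0 lower, beside 32.6% and 19.8% of all genes, with a median difference of 0.21. Their summed level was 1358 to 1725 TPM in *P. maniculatus*, beside 1711 to 2033 TPM in *P. polionotus*. *Adora2a*, the adenosine receptor of the indirect pathway, was higher by 0.96 and *Drd1* by 0.85 on the log2 scale (limma adjusted p = 8.66e-05 and 2.79e-05). Of the 5 indirect-pathway genes *Adora2a* was the 1 called higher and *Gpr52* the 1 called lower, *Drd2* stood at 0.10 (limma adjusted p = 0.431), and the summed level overlapped, from 109 to 183 TPM and from 148 to 191 TPM. Of the 5 direct-pathway genes tested *Drd1* was the 1 called higher and *Sfxn1* the 1 called lower, with *Tac1* at -0.04 (limma adjusted p = 0.643) and summed levels of 212 to 283 TPM and 304 to 340 TPM. *Prox1* and *Tdo2*, of 3 tested genes of hippocampal granule cells, which also make dynorphin, were called higher. *Tdo2* averaged 0.477 TPM in *P. maniculatus* and 1.53 ± 1.14 TPM (SD) in *P. polionotus*. It thus passed the filter of 1 TPM on average only through the latter. *Dsp* and *Lct* of that list were left out below 1 TPM. *Dsp* stood at 0.623 and 0.832 TPM and *Lct* at 0.854 and 0.117 TPM, in the same order of species. The granule cell list summed to 51.3 to 69.0 TPM and 58.9 to 73.8 TPM. Whether more striatal tissue, more striatal cells or more RNA per cell lies behind these values was not tested.

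When the mean level of the 13 projection neuron genes was entered as a covariate, a model chosen after the data were seen, the difference of *Penk* was 0.04 ± 0.09 (SE, limma adjusted p = 0.772) and that of *Pdyn* 0.39 ± 0.16 (0.0987). *Oprl1* alone of the 7 kept its call, at -0.42 (limma adjusted p = 0.0113). *Oprd1* and *Oprk1* stood at 0.36 ± 0.13 and 0.30 ± 0.11 (SE), with adjusted p-values of 0.078 and 0.076 in limma. Without the covariate they stood at 0.34 ± 0.07 and 0.35 ± 0.06, so their calls were lost mainly through wider errors. The covariate genes themselves differed between the species, so this model cannot separate their part from that of species. In that model 3716 genes were called instead of 7529.

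The levels of *Penk* and *Pdyn* were also set against those of other striatal genes within each library. The log2 ratio of *Penk* to *Ppp1r1b*, a phosphoprotein of all striatal projection neurons, was -0.22 ± 0.08 (SD, n = 6) in *P. maniculatus* and -0.18 ± 0.09 in *P. polionotus*. The ratio of *Pdyn* to *Drd1* was -1.83 ± 0.15 and -1.92 ± 0.11. Both pairs of ranges overlapped. The following ratios did not overlap between the species and differed in both directions. Against *Adora2a*, *Penk* stood at 4.16 ± 0.13 in *P. maniculatus* and at 3.57 ± 0.08 in *P. polionotus*, and against *Drd2* at 5.71 ± 0.14 and 6.01 ± 0.05. *Pdyn* stood at -3.88 ± 0.17 and -3.50 ± 0.09 against *Ppp1r1b*. Against *Tac1*, the substance P precursor of the direct pathway, *Pdyn* stood at -1.33 ± 0.15 and -0.53 ± 0.15, and *Penk* was 12.7 times as abundant as *Pdyn* in *P. maniculatus* and 9.97 times in *P. polionotus*. The pairs were chosen after the data were seen and carry no test.

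Across libraries, with group means removed, *Penk* and *Pdyn* varied together (Pearson r = 0.83 over 12 libraries, which share dissection and tissue makeup). Genes most like each member, of 10877 with at least 5 TPM, are given as a description. They included *Rrp7a* and *Adora2a* for *Penk* (0.94 and 0.93), and were *Drd2*, *Gchfr* and *Mrps10* for *Pdyn* (0.96, 0.92 and 0.92). For *Pnoc* they were *Mdk*, *Proser3* and *Safb2* (0.96, 0.95 and 0.94), for *Oprm1* *Stambpl1*, *Psme3* and *Znf131* (0.91, 0.89 and 0.86), and for *Oprd1* *Rin1*, *Fam131a* and *Ddit4* (0.92, 0.91 and 0.91). *Oprk1* was most like *Tle4*, *Commd5* and *Ankrd46* (0.95, 0.94 and 0.93), and *Oprl1* was most like *Gnb2*, *Nenf* and *Rab9b* (0.97, 0.97 and 0.96). *Adora2a* beside *Penk* is a gene of striatal projection neurons. *Drd2* beside *Pdyn* marks the pathway other than the one in which dynorphin is made.

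Among the other genes of the system, the precursor *Pomc*, the source of beta-endorphin, differed most. It stood at 3.84 to 9.67 TPM with a median of 7.46 in *P. maniculatus* and at 1.84 to 3.90 TPM with a median of 3.07 in *P. polionotus*, and 5 of 6 polionotus libraries lay below all maniculatus libraries. The difference was -1.03 ± 0.17 (SE, log2 scale, limma adjusted p = 0.000528). *Pomc* is also made in the pituitary. Of the 3 pituitary marker genes in the table *Tshb* and *Pou1f1* were below 1 TPM on average, and the 3 genes summed to 0.164 to 3.30 TPM in *P. maniculatus*, beside 0.805 to 2.76 TPM in *P. polionotus*. *Pomc* neurons of the brain lie mainly in the hypothalamus. The 10 hypothalamic marker genes summed to 342 to 527 TPM in *P. maniculatus*, beside 314 to 385 TPM in *P. polionotus*. Of the 8 tested, *Avp* (-1.62) and *Pmch* (-0.41) were called lower and 0 higher, and *Ghrh* and *Sim1* were below 1 TPM on average. The tested genes that were not called lay on both sides of 0. *Oxt*, *Trh*, *Nkx2-1* and *Otp* stood at 0.32, 0.22, 0.16 and 0.14, and *Agrp* and *Hcrt* at -0.42 and -0.17. The part of either tissue in the *Pomc* difference was not tested.

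Of 7 genes that cut and trim peptide precursors, 3 were higher and 1 was lower in *P. polionotus* by the test, where 32.6% and 19.8% of all genes were. The proprotein convertase *Pcsk2* was higher by 0.30 and the carboxypeptidase *Cpe* by 0.35, whereas *Pam*, which amidates peptides, was lower by 0.12 (limma adjusted p = 0.000185, 0.0052 and 0.0193). Of 6 tested peptidases that degrade opioid peptides 3 were higher and 2 lower, among them *Mme*, which encodes neprilysin, higher by 0.46 (limma adjusted p = 3.33e-05), *Dpp3* higher by 0.23, *Npepps* lower by 0.17 and *Ece2* lower by 0.13. Of 18 tested genes of receptor coupling 6 were higher and 2 lower, among them the arrestin *Arrb1* (0.38), the G protein subunit *Gnaz* (0.31), the potassium channel subunit *Kcnj3* (-0.28) and the receptor kinase *Grk5* (-0.23). In the 3 lists 4 of 7, 5 of 6 and 8 of 18 genes were called, beside 52.4% of all genes. Their medians were 0.02, 0.14 and 0.10, beside 0.06 over all genes tested.

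The burrowing trial changed none of the 7 genes by these tests. 0 of 7 were called in *P. maniculatus*, where 0.00696% of all genes were called, and 0 of 7 in *P. polionotus* and in the species by trial interaction, where 0% were called. Over both species 0 of 7 were called, beside 0.00696% of all genes. In none of these limma contrasts did a member have an unadjusted p under 0.05, while 291, 446, 415 and 296 of all genes did. The levels of burrowing and control libraries overlapped for all 7 genes in both species, whereas 7.23% and 6.45% of all genes did not overlap. In *P. polionotus* the control libraries were also lower in *Hox* genes than the burrowing libraries. Trial and that difference in hindbrain genes cannot be told apart in the polionotus contrast or in the interaction.

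The values nearest to a difference belonged to the delta receptor and to *Pnoc*. *Oprd1* stood at 1.33, 1.47 and 1.01 TPM in maniculatus controls and 1.36, 1.77 and 1.58 TPM after burrowing, and at 1.96, 1.67 and 2.12 TPM in polionotus controls and 2.43, 2.15 and 1.98 TPM after burrowing. Its difference over both species was 0.15 on the log2 scale, with a 95% interval from -0.01 to 0.31 (limma, Benjamini-Hochberg adjusted p = 1). For *Pnoc* the trial difference was 0.09 in *P. maniculatus* and -0.20 in *P. polionotus*, and the interaction was -0.29 with an interval from -0.72 to 0.13. On log2(TPM + 1) the intervals of the trial differences bound each member within a species between -0.51 and 0.40. Differences smaller than these were not excluded at 3 libraries per group. For members at a few TPM this scale understates changes, so larger changes in plain level were not excluded either.

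In the F1 hybrids, where both alleles were summed, 0 of 7 genes were called between trials with edgeR, as were 0% of all genes. No member had an unadjusted p under 0.05, which 90 of all genes had, and DESeq2 called 0 members and 2 genes in all. *Oprm1* was the 1 member whose animals did not overlap, with 6.04 to 8.51 CPM in controls and 8.84 to 9.73 after burrowing; 2.88% of all genes did not overlap. Its difference was 0.34 on the log2 scale with a 95% interval from -0.08 to 0.75 (edgeR adjusted p = 0.965). *Pnoc* had -0.49 with an interval from -1.24 to 0.27, and *Penk* -0.23 with an interval from -0.64 to 0.18.

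**Figure D2:**
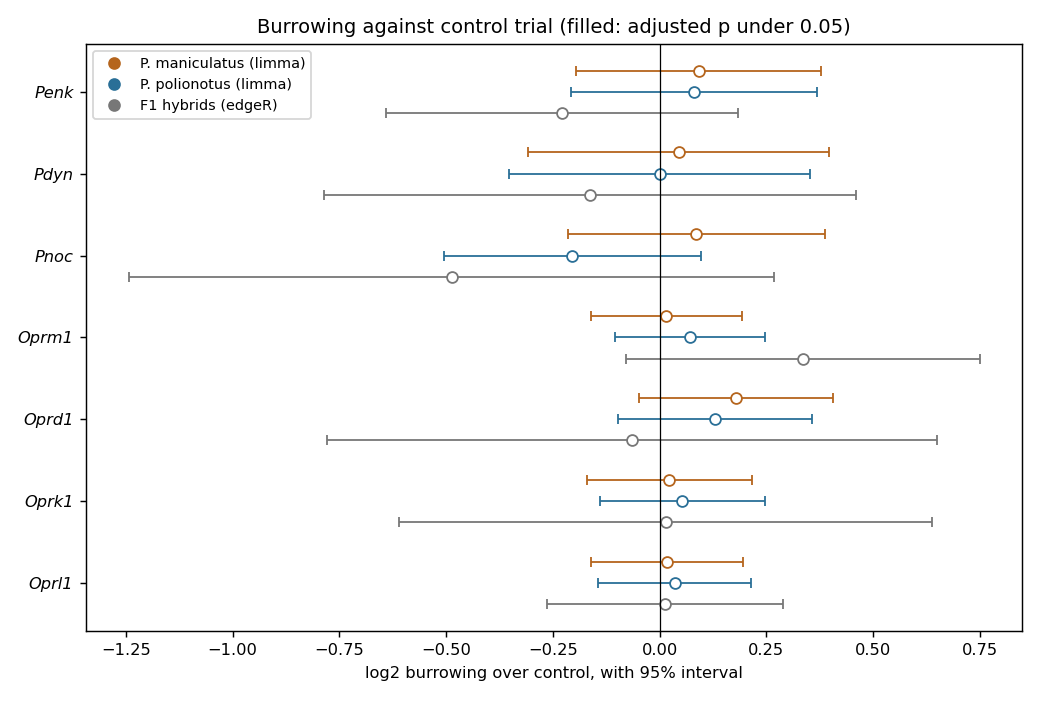
Log2 difference of the burrowing against the control trial for each opioid gene, in P. maniculatus and P. polionotus (limma, log2(TPM + 1)) and in F1 hybrids (edgeR, summed alleles), 3 against 3 animals; bars are 95% intervals and a filled point would mark an adjusted p under 0.05. Every point is open and every interval spans 0, the widest being Pnoc in the hybrids, from -1.24 to 0.27.

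In a hybrid both alleles sit in the same cells and the same dissected tissue, so the alleles can be compared within an animal; the polionotus share is the percentage of counts that fell on the polionotus allele among those of the gene that could be given to either. Over all genes the polionotus share was 52.6% to 53.1% per animal. 2 of the 7 members differed between the alleles in edgeR with the animal as a block, both lower on the polionotus allele, beside 55.7% of all genes called and 21.5% called lower. The same pair, *Oprm1* and *Oprl1*, was the one with 1 direction in all 6 animals, which held for 53% of all genes.

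*Oprm1* had polionotus shares of 37.7%, 38.2% and 38.8% in control animals 1 to 3 and of 36.9%, 39.4% and 38.7% in burrowing animals 1 to 3. These rested on 69 to 459 counts per animal, and the 95% Wilson interval of the shallowest animal, which covers counting error only, was 27.2% to 49.5%. The log2 ratio of the polionotus to the maniculatus allele was -0.69 ± 0.05 (approximate SE, edgeR adjusted p = 8.02e-05). The 6 animals spanned 2.43 percentage points, a range that 92.6% of genes reached or exceeded.

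*Oprl1* had shares of 45.5%, 46.9% and 46.5% in control animals and of 46.8%, 46.6% and 46.0% in burrowing animals, on 1497 to 6703 counts per animal. All 6 lay below an even split and within 1.43 percentage points of each other. The log2 allele ratio was -0.21 ± 0.02 (approximate SE, edgeR adjusted p = 0.000542). *Rgs19*, which overlaps it, leaned the other way, with polionotus shares of 51.2% to 56.3% and a log2 ratio of 0.20 (edgeR adjusted p = 0.0161).

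The other 5 members did not pass. *Penk* had shares of 54.5%, 49.0% and 56.4% in controls and 61.0%, 51.7% and 49.7% after burrowing on 1324 to 5648 counts, and its log2 ratio was 0.22 with a 95% interval from -0.02 to 0.46 (edgeR adjusted p = 0.107). *Pdyn* had shares of 56.7%, 41.9% and 56.3% in controls and 54.8%, 60.2% and 59.8% after burrowing, so control replicate 2 alone lay below an even split. Its ratio was 0.29 with an interval from -0.06 to 0.65 (edgeR adjusted p = 0.131), and without that animal it was 0.44 (adjusted p = 0.0048). *Oprk1*, with 39 to 173 counts, had shares of 40.3% to 52.9% and a ratio of -0.15 with an interval from -0.42 to 0.11 (edgeR adjusted p = 0.274).

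*Pnoc* and *Oprd1* stood apart by how much their shares differed between animals. *Pnoc* had 44.7%, 40.2% and 75.4% in controls and 33.6%, 65.7% and 68.1% after burrowing. *Oprd1* had 56.2%, 80.4% and 83.6% in controls and 38.4%, 48.1% and 79.3% after burrowing. A spread as wide was reached by 5.59% and 3.81% of genes. In the deepest animal, control replicate 3, the 95% Wilson interval of *Pnoc* was 71.2% to 79.2% and that of *Oprd1* 78.8% to 87.4%. With ratios of 0.31 and 0.92 and adjusted p-values of 0.537 and 0.155 in edgeR, neither gene was called over the 6 animals.

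**Figure D3:**
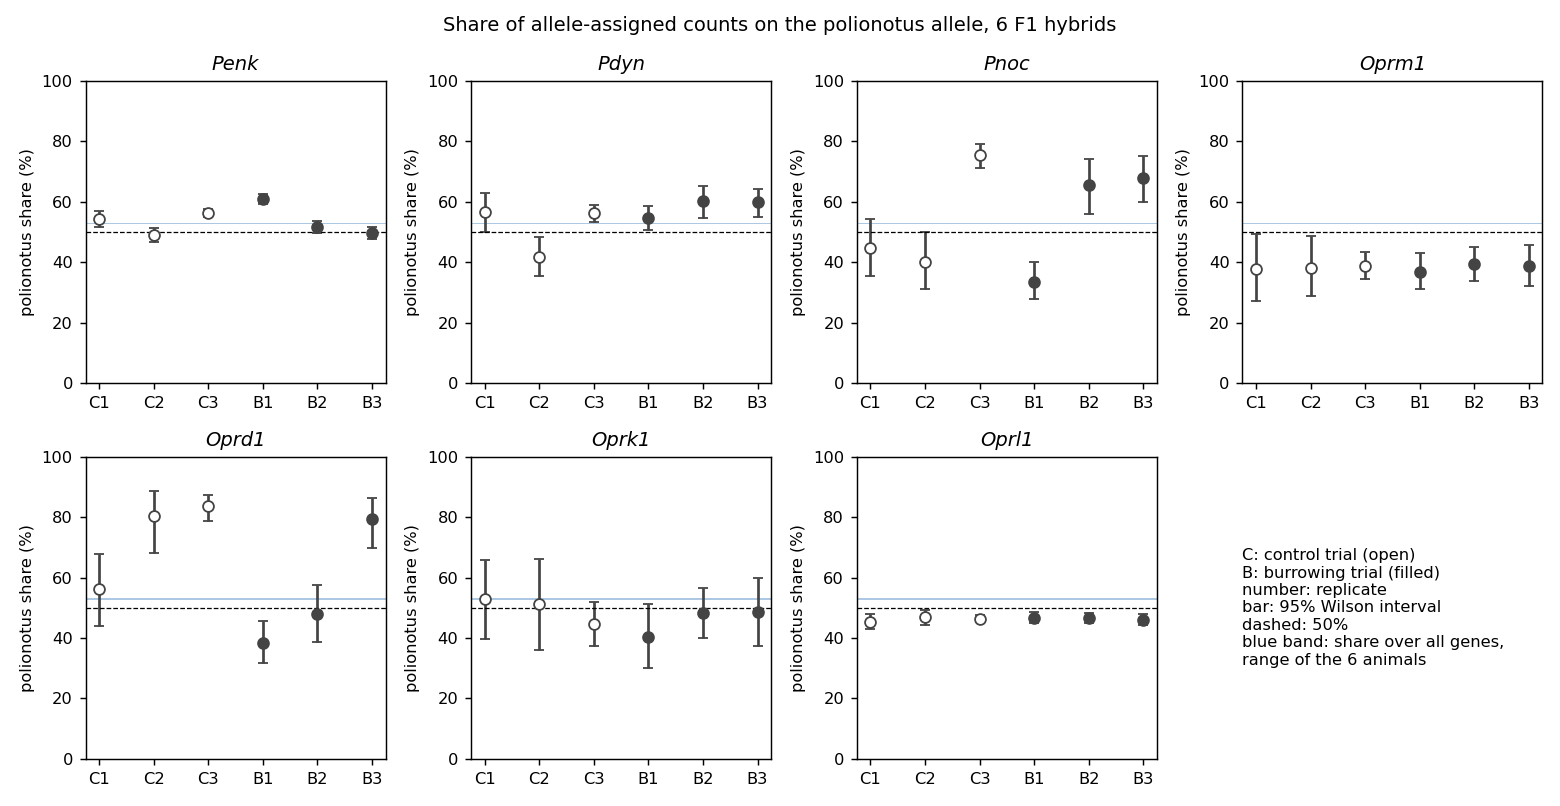
Polionotus share (%) of the allele-assigned counts of each opioid gene in 6 F1 hybrids, controls C1 to C3 and burrowing animals B1 to B3; bars are 95% Wilson intervals, the dashed line is 50% and the band is the share over all genes. Oprm1 and Oprl1 lie below 50% in all 6 animals within 2.43 and 1.43 points, while Pnoc and Oprd1 spread over 41.8 and 45.2 points.

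The genes next to a member, 4 on each side by the order of the *P. maniculatus* assembly, were looked at after these shares had been seen. *Pnoc* lies on chromosome 9 beside *Elp3*. *Elp3* had shares of 43.5% and 42.7% in control animals 1 and 2 and 43.6% in burrowing animal 1, and of 94.3% to 95.1% in control animal 3 and burrowing animals 2 and 3, the same 3 that were high at *Pnoc*. *Fzd3*, 3 genes away on the other side, followed with 50.3%, 59.5% and 80.5% and with 56.8%, 81.8% and 85.8%. The nearest gene on that side, *Znf395*, did not: it had 25.8%, 46.9%, 18.7%, 50.7%, 9.38% and 49.6% in the same order.

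*Oprd1* lies on chromosome 2 between *Epb41* and *Ythdf2*. In the same order of animals *Epb41* had 44.6%, 82.2% and 76.2% and then 42.6%, 39.2% and 81.5%, and *Ythdf2* 49.5%, 71.6% and 74.0% and then 50.6%, 49.8% and 73.7%. Both were high in the 3 animals that were high at *Oprd1*, as was *Srsf4* with 78.8% to 80.2% there and 47.9% to 53.0% elsewhere. *Gmeb1* and *Taf12*, the next genes beyond *Ythdf2*, ranged only from 55.4% to 61.3% and from 51.0% to 54.9%. What sets these animals apart from the others at such runs of genes was not tested.

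Neighbours of *Pdyn* and *Penk* also went with them in part. *Snrpb*, 3 genes from *Pdyn* on chromosome 4, had 23.4% in control replicate 2, the animal lowest at *Pdyn*, and 52.0% to 55.1% in the other 5. *Ckap2l*, next to *Pdyn*, had 37.5% there on 40 counts and 79.1% to 87.6% elsewhere. *Lyn*, 3 genes from *Penk*, had 68.7%, 69.8% and 71.7% in control replicates 1 and 3 and burrowing replicate 1, which were the 3 highest at *Penk*, and 51.9% to 56.1% in the rest. *Ubxn2b* and *Sdcbp*, on the other side of *Penk*, spanned 51.8% to 56.3% and 55.8% to 57.5%. Beside *Oprm1* on chromosome 16, *Rgs17*, a regulator of inhibitory G proteins, had shares of 22.5% to 44.6% and a log2 ratio of -1.38 (edgeR adjusted p = 0.00193), while *Scaf8* on the other side had 46.6% to 50.8%.

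**Figure D4:**
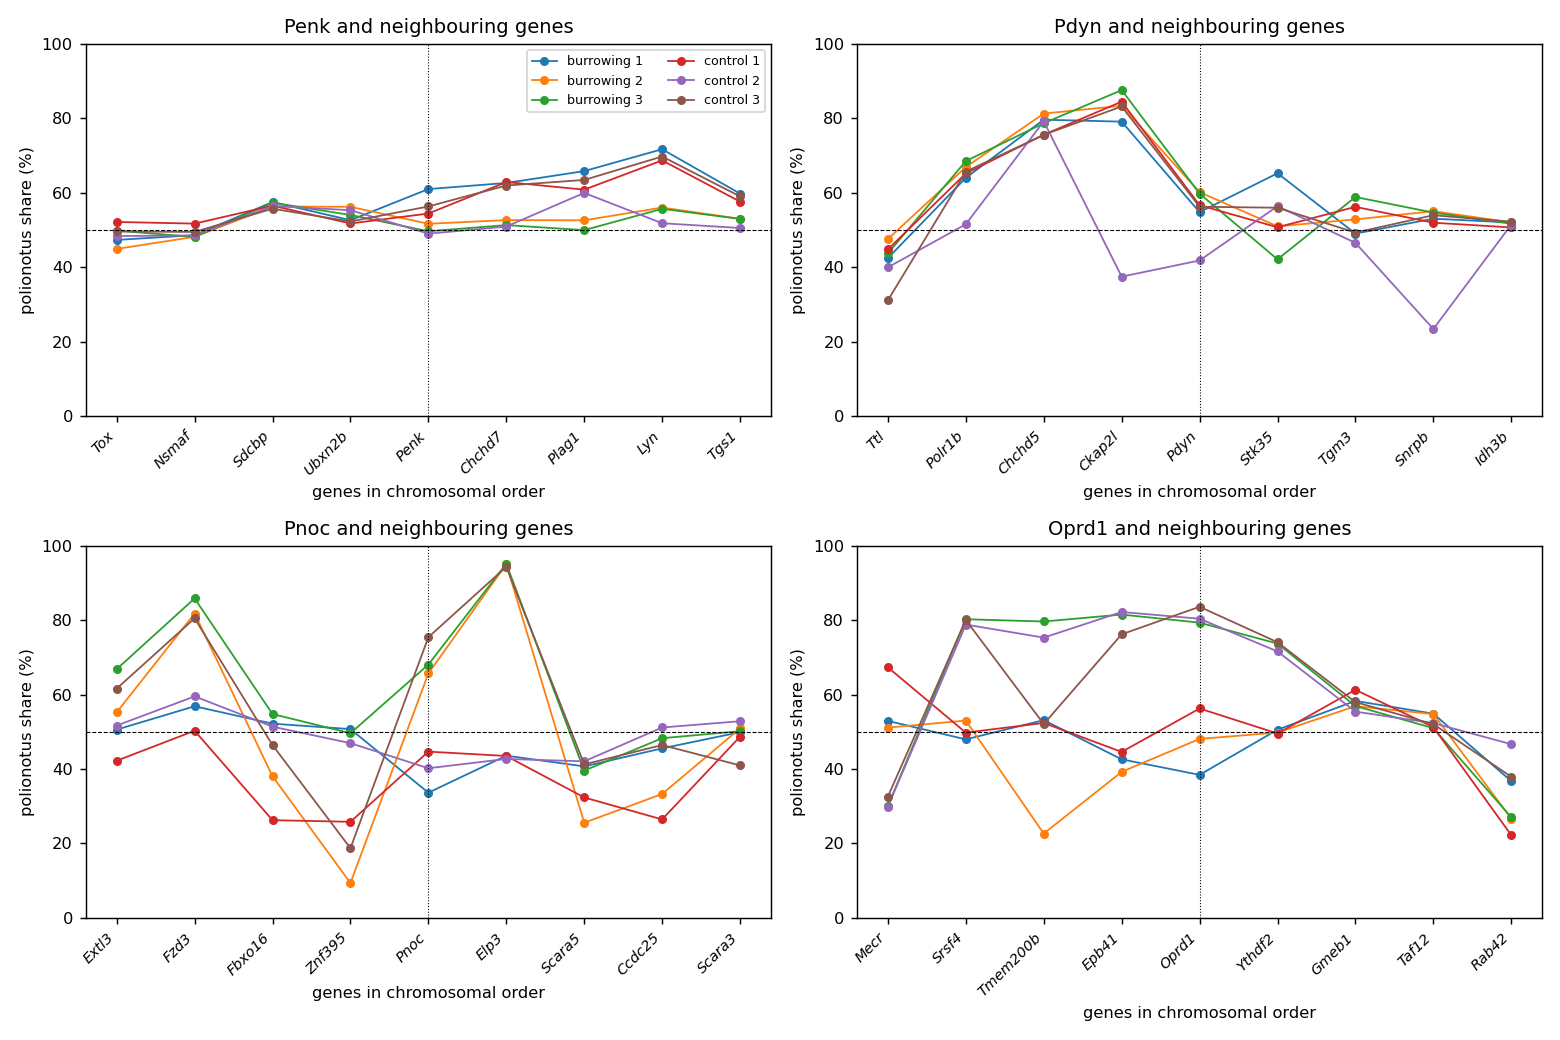
Polionotus share (%) in each of 6 F1 hybrids at Penk, Pdyn, Pnoc and Oprd1 (dotted lines) and at 4 genes on either side in the order of the P. maniculatus assembly; the x axis is gene order, not distance, each line is 1 animal and the dashed line is 50%. At Elp3 beside Pnoc 3 animals lie at 94.3% to 95.1% and 3 at 42.7% to 43.6%, whereas at Sdcbp near Penk all 6 lie at 55.8% to 57.5%.

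The allele ratio did not depend on the trial by the test of that interaction: edgeR called 0 of 7 members, beside 0.226% of all genes, no member had an unadjusted p under 0.05 where 266 genes did, and DESeq2 called 0 members. The widest value, -1.34 for *Oprd1*, had a 95% interval from -3.58 to 0.91, so for this gene the interaction was hardly bounded. For *Oprm1* it was 0.00 with an interval from -0.27 to 0.27, and for *Oprl1* 0.01 with an interval from -0.12 to 0.15.

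Set side by side, the difference between species and the difference between alleles had the same sign for 6 of the 7 genes, with different sizes. The share of all genes with the same sign is not given here, and only *Oprm1* and *Oprl1* were called in both. *Pnoc*, counted among the 6, was at 0.03 between species and 0.31 between alleles. Its intervals, from -0.19 to 0.24 and from -0.66 to 1.28, leave either sign open. *Oprm1* was at -0.16 between species and -0.69 between alleles, and *Oprl1* at -0.52 and -0.21. *Oprk1* was at 0.35 with an interval from 0.21 to 0.49 between species and at -0.15 with an interval from -0.42 to 0.11 between alleles. *Pdyn* was at 0.74 and 0.29, *Penk* at 0.42 and 0.22 and *Oprd1* at 0.34 and 0.92. The units differ, with the species values on log2(TPM + 1) and the allele values as ratios of counts. The former scale understates differences of genes at a few TPM, such as *Oprm1* and *Oprd1*. Their mean levels in *P. polionotus* were 0.856 and 1.44 times those in *P. maniculatus*. Whether species and allele values differ was not tested.

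**Figure D5:**
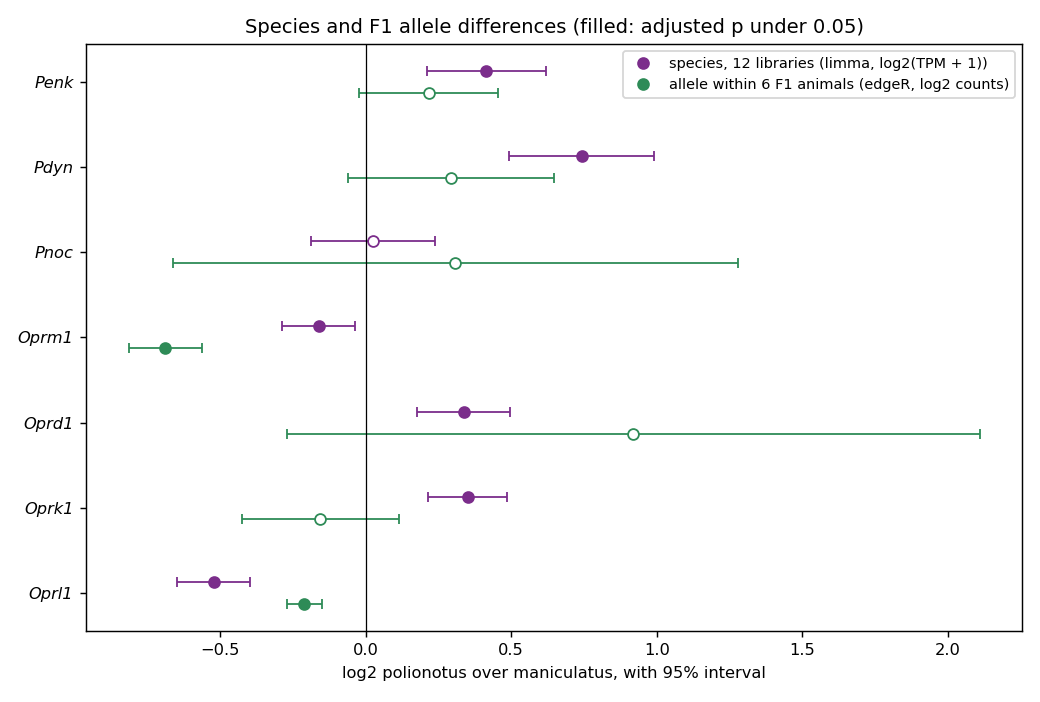
Log2 difference of P. polionotus against P. maniculatus for each opioid gene between the parental species (limma, log2(TPM + 1), 6 against 6 libraries) and between the alleles of 6 F1 hybrids (edgeR, ratio of counts); bars are 95% intervals, filled points have an adjusted p under 0.05. Oprm1 and Oprl1 are filled in both, and Oprk1 lies above 0 between species and below 0, not filled, between alleles.

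The other genes of the system also had called allele differences in both directions, where 34.2% of all genes were higher and 21.5% lower on the polionotus allele. Of 5 processing genes with counts 3 were higher and 2 lower on the polionotus allele, among them *Cpe* (0.24), *Pcsk1* (0.13), *Pam* (-0.13) and *Scg5* (-0.10). Of 6 peptidases 4 were higher and 0 lower, with *Dpp3* at 0.85 and *Mme* at 0.20. Of 19 coupling genes 6 were higher and 5 lower on that allele, among them the receptor kinase *Adrbk2* (1.30) and the G protein subunit *Gnao1* (0.92), which did not pass between the species at 0.15 and 0.07. *Gprasp1*, which sorts receptors to degradation, had a polionotus share of 0.0176% to 0.0371% and is 1 of the 5 called lower. It lies on the X chromosome of the assembly, of which male hybrids carry 1 copy, taken from the mother. Its counts therefore do not compare 2 alleles within an animal, and they point to maniculatus mothers. *Pomc* was not analysed here in the count table.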

How the data were processed

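Whole-brain RNA was sequenced from stranded poly(A) libraries, per the labels' protocols, with alignment by STAR 2.4.2a per the submitters' processing notes. The genome build, the annotation, the counting and the way reads were given to an allele were not given in the sources used here. For the 12 parental libraries the authors deposited TPM; 1 row that names no gene (0.789% to 2.48% of a column) was left out. For the 6 hybrid libraries they deposited whole-number counts, 1 column per allele. Groups and replicate numbers came from the sample titles. Each library was treated as 1 animal, and p-values measure only the spread between these samples.

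Parental libraries were tested with limma 3.58.1 (R 4.3.3, mean trend) on log2(TPM + 1), leaving out genes that average under 1 TPM, with 1 mean per group and 1 spread shared by all 12 libraries. Hybrids were tested with edgeR 4.0.16 (quasi-likelihood F test, TMM, filterByExpr) on summed alleles, and alleles with the animal as a block, the animal's total as library size and a mean of at least 20 counts. Standard errors and intervals of edgeR values are approximate, from the F statistic. Tests were two-sided and adjusted by Benjamini-Hochberg over all genes. Scripts were tested on simulated data. Alternatives were other pseudocounts, filters and scalings, DESeq2 1.42.0, a replicate block and leaving out libraries.

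All 7 members passed both filters. The members and the lists of pathway and marker genes were chosen with earlier results of these data known. Other genes were named by a rule: per pathway list at most 2 called genes per direction with the smallest adjusted p, and per member the 3 genes most like it, of which 1 is not reported here; genes named outside it (marker genes, neighbours, *Rgs19*) were chosen after their values were seen. A gene table of a *P. maniculatus* assembly, of a build that may differ from that of the files, matched all 7 symbols and gave only chromosome, overlap and gene order.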

Additional observations from a re-analysis of the deposited data

Results flagged for a closer look

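In the F1 hybrids the polionotus share of *Pdyn* in control replicate 2 was 41.9%, against 54.8% to 60.2% in the other 5 animals. Its gap to the nearest of them was 0.708 of the whole range, above Dixon's critical value of 0.625 for 6 samples. It was the 1 such sample among 28 groups of values examined, and chance marks about 1 group in 20. The same animal was lowest at the nearby genes *Snrpb* (23.4%) and *Ckap2l* (37.5% on 40 counts), which were named after their shares were seen. Other neighbours showed no such drop, as *Chchd5* spanned 75.6% to 81.3% and *Idh3b* 50.7% to 52.2% over all animals.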

How the results depend on the processing

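Of 1334 values of single members under the alternatives, 1280 stayed on their side of the threshold, 50 lost and 3 gained a call, and 1 called value turned its sign; 110 values called in neither setting also turned theirs. *Oprl1* stayed called between species under every alternative run, and *Oprm1* between alleles. Between species after burrowing 3 members were called with median scaling instead of 5. Of all genes 5281 were called there instead of 4901. The number of members called was 3 to 5 when 1 library was left out. In controls it was 3 to 5 with 1 library left out, 1 without the 2 polionotus control libraries low in hindbrain genes, which leaves 1 library in that group, and 3 without the 3 libraries apart on the second principal component. Numbers of all genes called are not given here for fits with libraries left out or with no replicate block. With the striatal covariate 1 member was called over both trials, 1 in controls and 1 after burrowing. Of all genes 3716, 2265 and 3368 were called with it, in that order. *Penk* in controls was then at -0.022 (limma adjusted p = 0.918). Without the 2 hindbrain-poor libraries *Oprm1* over both trials had an adjusted p of 0.082. Genes called higher among all called genes were 62.3% over both trials and 67.5% in controls, 49.8% and 49.8% with quantile normalization and 49.3% and 48.3% with median scaling; the median of all genes moved by less than 0.1. In controls *Oprm1* was called with quantile normalization (0.0421) and median scaling (0.0226), and *Oprk1* was not (0.0813 and 0.0602). *Oprd1* in controls was also not called with quantile normalization (0.0514), nor *Penk* with median scaling (0.105) or with only the groups compared (0.0635). After burrowing *Oprd1* was not called with quantile normalization (0.073) or median scaling (0.0578). *Penk* was not called there with median scaling (0.0656) or no expression filter (0.055). All these are adjusted p-values from limma. With no replicate block 1 member was called between alleles, as *Oprl1* had an adjusted p of 0.0557. Replicate numbers did not pair the animals: the deviations of same-numbered libraries correlated from -0.229 to 0.547 among the parental groups and from -0.584 to 0.186 among the hybrids. With a replicate block 6 members were called over both trials, 5 in controls and 4 after burrowing. Of all genes 7764, 5927 and 5171 were called, in that order. *Oprd1* after burrowing then had a limma adjusted p of 0.0523. Depth limits the shares of *Oprk1*, *Oprd1*, *Oprm1* and *Pnoc*, which rested on under 100 counts in the shallowest animal.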

Other observations

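*Rgs20*, *Tcea1* and *Mrpl15*, the genes next to *Oprk1* on one side, had polionotus shares of 66.3% to 69.4%, 68.5% to 72.6% and 68.4% to 71.6% in control replicates 1 and 3 and burrowing replicate 1, and of 54.1% to 54.6%, 49.5% to 50.9% and 56.6% to 57.7% in the other 3 animals. *Oprk1* did not go with them: it had 52.9%, 44.5% and 40.3% in the first 3 animals and 51.3%, 48.2% and 48.6% in the others. *Penk*, also on chromosome 2, was highest in the same 3 animals as *Rgs20*. *Tiam2*, the second gene from *Oprm1*, had shares of 81.0% to 82.9% in all 6 animals, on the other side of an even split from *Oprm1*.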
